A study of Mus musculus with 4 samples.

Results

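This account follows 6 genes, Itgae, Itgb7, Itga1, Cd69, Rgs1 and Cxcr6, which are read as a tissue residency and epithelial retention programme, through the T, natural killer (NK), innate lymphoid and dendritic cells of the mouse mammary gland. They were named one by one, with earlier results of these data known and with no threshold on their values, and are 6 of the 55253 genes that 2 droplet RNA libraries share. The libraries hold CD45+ cells, the blood-derived immune cells, of glands pooled under hash tags, which are antibody barcodes that tell the samples of a pool apart. An earlier library gave the hash-defined samples Nulliparous (never pregnant), Gestation and Lactation. A later library gave Gestation, Lactation, Involution, Regression, Balb/c (an inbred strain) and GF. The design text names germ-free mice, which live without microbes, and GF is the later sheet's short form. These are 9 hash-defined samples in all. No source used here gives the strain of the mice taken by stage, the reproductive stage of the mice called Balb/c or GF, an age, or how many animals share a tag. Each name is 1 sample per library. P-values between gates draw on the spread between these samples, which may in part be technical, and in edgeR also on variance shared across genes. The edgeR p-values between stages rest mostly on that shared variance. A further tag, HT2, is called Germ-free on both sheets, which the titles of the libraries do not bear out, and it stayed out of every comparison unless named.

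As background, lymphocytes that stay in a tissue keep out of the blood by adhesion and by blocking exit. Itgae encodes the alpha chain CD103, which pairs with the beta chain of Itgb7 to bind E-cadherin on epithelium, and Itga1 encodes CD49a, which pairs with the integrin beta1 chain to bind collagen. Itgb7 also pairs with Itga4 as the gut-homing integrin. Cd69 encodes a surface protein that pulls the sphingosine phosphate receptor S1PR1 inside the cell, and so holds back exit to lymph or blood, and is also an early activation marker. Rgs1 encodes a regulator that damps signals from chemokine receptors. Cxcr6 encodes the receptor for the chemokine CXCL16, which dendritic cells and macrophages carry. The mammary gland is an epithelial organ, and T cells bearing CD8 are known to lie among its ducts.

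Cells were sorted into gates by 6 other genes: Cd3e, part of the T cell receptor complex; Cd4, Cd8a and Cd8b1, which encode T cell coreceptors; Ncr1, the NK receptor NKp46; and Xcr1, a chemokine receptor of type 1 dendritic cells. A positive gene had at least 1 UMI, a count of 1 captured RNA molecule, and a negative gene had 0. Cd3e+ cells without Ncr1 and Xcr1 UMIs are called T cells, and were split into Cd4+ T, Cd8b1+ T, Cd8a+ Cd8b1- T and T cells without a coreceptor UMI. Ncr1+ Cd3e- cells, Cd3e+ Ncr1+ cells and Xcr1+ cells made the other gates. A cell can lack a UMI of a gene it transcribes, so a negative gate also holds cells whose transcript was missed. The Ncr1+ gates hold NK cells and any innate lymphoid cells with Ncr1 RNA. In the 9 named samples the T gate held 2826 earlier and 4092 later cells, the Ncr1+ Cd3e- gate 1232 and 1278, and the Xcr1+ gate 152 and 125. B cells, gated by Cd79a and Ms4a1, served to show how much of a transcript free RNA leaves in other cells. For Cd69 they are no such reference, since 31.1% of earlier and 41.0% of later B cells had a Cd69 UMI. An Itgb7 UMI was in 11.9% and 20.8% of B cells and an Rgs1 UMI in 2.44% and 8.71%, against 0.430% and 1.14% for Itgae. Whether the Itgb7 and Rgs1 UMIs are free RNA or transcripts of the B cells was not tested, so B cell levels of these genes are not read as free RNA.

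The libraries differed in depth: the cells that passed the filters had a median of 1599 UMIs in the earlier and 3049 in the later one, and 139 cell barcodes occurred in both. In the Lactation sample of the later library the median count of the tag was 6, the lowest of the 9. The gates held their defining markers. The summed level of 6 T cell genes was 23.2 to 47.5 UMIs per 10000 in the T cell gates and 0.443 to 0.949 in B cells. That of 6 NK genes was 47.4 to 67.8 in Ncr1+ Cd3e- cells, and that of 7 type 1 dendritic cell genes was 35.3 to 40.4 in Xcr1+ cells. All levels below are UMIs of the gene per 10000 UMIs of the gate in a hash-defined sample, and intervals on them cover counting error only.

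For 2 members whose levels differ between gates, Itga1 and Cxcr6, the 250 bases before the annotated start are shown 5′ to 3′ along the gene, because these are the stretches next to which transcription of the members starts. They come from RefSeq on build GRCm38.p6, whose table matched 3 of the 6 members, and capitals mark the core of the motif bound by RUNX factors, TGTGGT or its reverse ACCACA.
Itga1, chr13:115101965-115102214, minus strand: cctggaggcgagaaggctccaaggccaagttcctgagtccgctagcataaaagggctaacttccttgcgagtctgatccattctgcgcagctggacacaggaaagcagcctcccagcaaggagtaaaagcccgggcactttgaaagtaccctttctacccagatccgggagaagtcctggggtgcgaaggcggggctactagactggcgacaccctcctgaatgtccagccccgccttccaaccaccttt
Cxcr6, chr9:123806227-123806476, plus strand: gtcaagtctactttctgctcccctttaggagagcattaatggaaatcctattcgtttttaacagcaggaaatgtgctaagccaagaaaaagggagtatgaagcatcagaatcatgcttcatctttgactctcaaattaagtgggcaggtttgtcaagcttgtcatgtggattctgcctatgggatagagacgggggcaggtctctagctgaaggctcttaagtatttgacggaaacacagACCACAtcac
The Cxcr6 stretch held 1 match to the RUNX core and the Itga1 stretch 0. Among 32851 promoters cut to the same 250 bases, 14.0% held a match on either strand, so a match is common. The core bound by T-box factors, GGTGTG or CACACC, was in neither stretch and in 16.3% of all. The Itga1 stretch was 57.6% G and C and the Cxcr6 stretch 43.6%.

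Itgae, on chromosome 11 (73090505 to 73147449), was graded across the gates. In Cd4+ T cells its level ran from 0 (earlier Gestation, 0 UMIs, with an upper 95% Poisson limit of 0.654) through a median of 0.482 to 1.14 (later Lactation). In Cd8b1+ T cells it ran from 0.724 through 1.47 to 3.64, and in Cd8a+ Cd8b1- T cells from 1.80 through 4.33 to 10.9. These ranges overlap between samples, but within a sample the order held: Cd8b1+ T cells were above Cd4+ T cells, and Cd8a+ Cd8b1- T cells above Cd8b1+ T cells, in 9 of 9 samples. T cells without a coreceptor UMI had a median of 2.74, Cd3e+ Ncr1+ cells of 4.40 and Ncr1+ Cd3e- cells of 1.79. Xcr1+ cells had a median of 0.752 over 6 samples with at least 20 such cells, and B cells of 0.038. The neighbours Cd3e+ Ncr1+ and Cd8a+ Cd8b1- T, and the neighbours Ncr1+ Cd3e- and Cd8b1+ T, lay within each other's range over the samples.

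Itga1, on chromosome 13 (114958079 to 115101964), had a similar order. Its level in Cd4+ T cells ran from 0.177 through 0.674 to 2.70, in Cd8b1+ T cells from 0.254 through 1.61 to 3.70, and in Cd8a+ Cd8b1- T cells from 2.15 through 5.02 to 8.37. The Ncr1+ Cd3e- gate, with 0.633, 2.79 and 6.11, stood closer to the T cell gates for this gene. Xcr1+ cells ranged from 0.265 to 0.542. B cells stayed at 0 to 0.237.

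Rgs1, on chromosome 1 (144244669 to 144249104), had its higher medians in Cd3e+ Ncr1+ cells (11.5), Cd8a+ Cd8b1- T cells (10.5) and Ncr1+ Cd3e- cells (10.1), whose ranges overlapped widely. T cells without a coreceptor UMI had a median of 8.90, Cd8b1+ T cells of 5.93 and Cd4+ T cells of 4.96. In the later library alone the Cd4+ T median, 5.54, was above the Cd8b1+ T median, 4.99. Xcr1+ cells had 1.75, but there the UMIs sat in few cells: 22 of the 36 Rgs1 UMIs of the GF sample were in 1 cell. Cxcr6, on chromosome 9 (123806477 to 123811754), had its higher medians in Cd8a+ Cd8b1- T cells (2.99) and T cells without a coreceptor UMI (2.80). Cd8b1+ T cells had 2.43, Cd3e+ Ncr1+ cells 1.81, Cd4+ T cells 1.24 and Ncr1+ Cd3e- cells 1.07. In Xcr1+ cells it was at 0 to 2 UMIs per sample, like in B cells (a median of 0.0532 per 10000).

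Cd69 and Itgb7 did not follow the order of Itgae and Itga1. Cd69, on chromosome 6 (129267324 to 129275375), had medians of 1.95 in Cd4+ T, 2.29 in Cd8b1+ T and 1.95 in Cd8a+ Cd8b1- T cells, and was higher in B cells, at 2.07 to 4.83 with a median of 3.56. Itgb7, on chromosome 15 (102215994 to 102233405), had medians of 2.75 in Cd4+ T, 2.48 in Cd8b1+ T, 2.33 in Cd8a+ Cd8b1- T, 2.34 in Ncr1+ Cd3e- and 2.10 in Xcr1+ cells. Single samples ran from 1.27 (Cd8a+ Cd8b1- T, Balb/c) to 3.54 (Cd3e+ Ncr1+, earlier Gestation), and the Cd4+ T median was 1.62 in the earlier and 2.97 in the later library. B cells had a median Itgb7 level of 1.07. The medians of the beta chain thus spanned 2.10 to 2.75 over gates whose Itgae medians ran from 0.482 to 4.40.

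**Figure D1:**
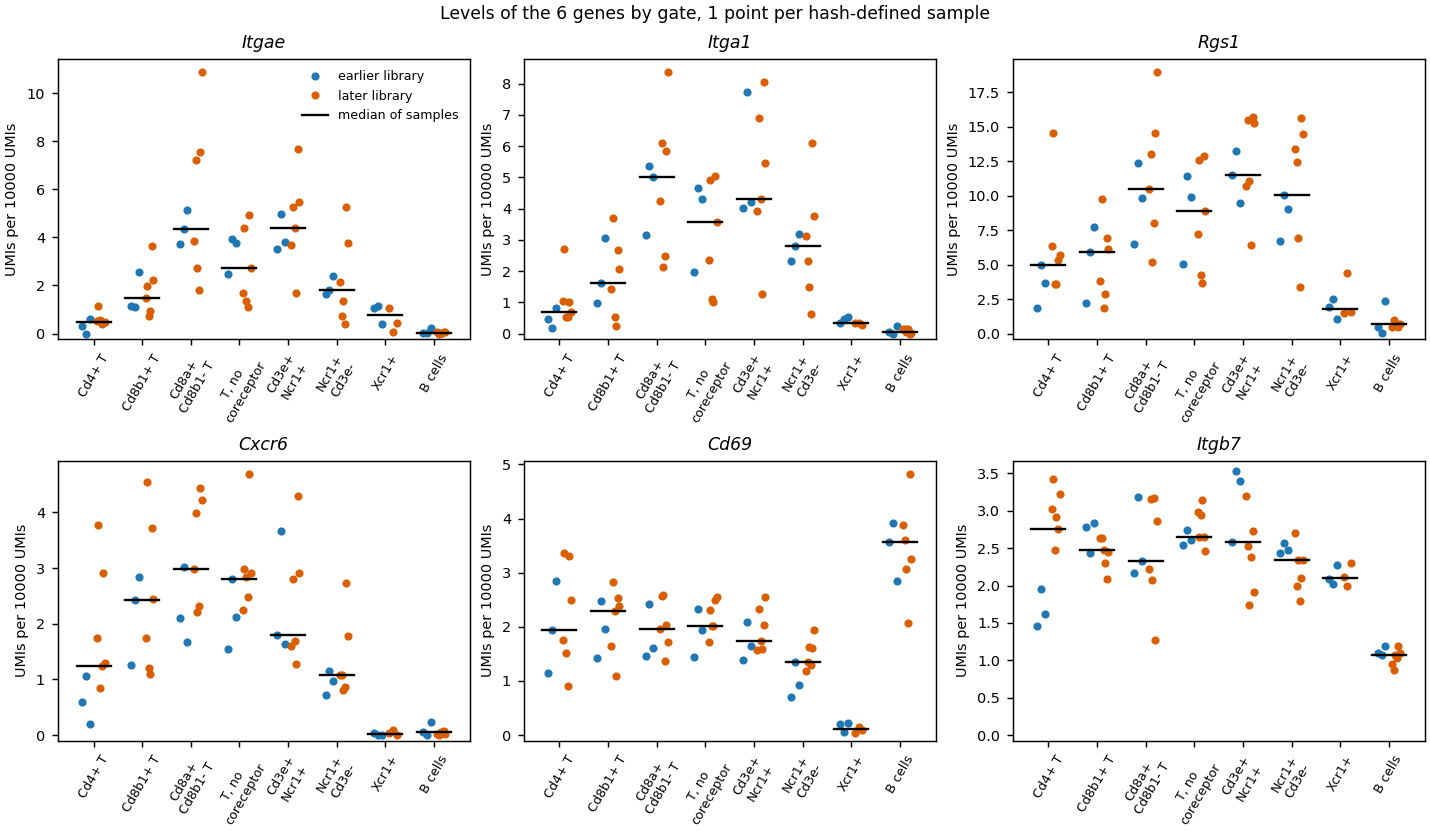
Each point is the level of a gene in 1 hash-defined sample, in UMIs of the gene per 10000 UMIs of the gate (vertical axis), for each gate with at least 20 cells (horizontal axis); blue is the earlier and orange the later library, and the black line is the median of the samples. The Itgae and Itga1 medians rise from Cd4+ T through Cd8b1+ T to Cd8a+ Cd8b1- T cells. Rgs1 rises mainly from Cd8b1+ T (median 5.93) to Cd8a+ Cd8b1- T cells (10.5). The Itgb7 medians lie between 2.10 and 2.75 except in B cells, and Cd69 is higher in B cells, with a median of 3.56.

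Shares of cells with a UMI gave the same picture once each cell was thinned to 1000 UMIs. An Itgae UMI was then found in 32.9% of earlier Cd8a+ Cd8b1- T cells (exact 95% interval 28.4 to 37.5; 28 shallower cells left out; 49.7% before thinning) and in 36.8% of later ones (32.0 to 41.8; 3 left out; 55.9% before thinning). In Cd8b1+ T cells the thinned shares were 13.8% and 13.0%, and in Cd4+ T cells 2.26% (0.468 to 6.45) and 2.74% (1.60 to 4.35). B cells of the later library, with a median of 2040 UMIs against 2817 in Cd4+ T cells, had 0.496% (0.257 to 0.865). By sample, Itgae there ran from 0.402 to 1.14 in Cd4+ T cells and from 0 to 0.0743 in B cells. In the earlier library the Cd4+ T cell interval reached below the upper limit for B cells, 1.44%. There 444 of 698 B cells were too shallow and left out. Itgae was not detectable above that upper limit at this depth. Before thinning the earlier shares were 4.46% (1.81 to 8.97) in Cd4+ T cells and 0.430% (0.0887 to 1.25) in B cells. These intervals treat cells pooled over samples as independent and leave out the spread between samples. In 713835 near-empty droplets of the earlier library, those with 1 to 50 UMIs, Itgae made up 0.854, Itga1 0.794, Itgb7 1.68, Cd69 0.878, Cxcr6 0.517 and Rgs1 3.31 per 10000 UMIs. For all but Cd69 that is above the median in B cells of that library. In Cd4+ T cells of that library the medians of Itgae (0.301), Itga1 (0.452) and Itgb7 (1.62) were below these values, and those of Cxcr6 (0.603), Rgs1 (3.65) and Cd69 (1.95) above them.

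The comparison of Cd8b1+ with Cd4+ T cells asks whether the genes mark the CD8 lineage. Itgae was higher in Cd8b1+ T cells by 1.69 on the log2 scale (SE 0.21, adjusted p = 9.23e-06, 9 samples, edgeR's quasi-likelihood test with the sample as a block), Itga1 by 0.81 (SE 0.19, adjusted p = 0.00929) and Cxcr6 by 0.50 (SE 0.15, adjusted p = 0.0347). These are 3 of 6 members, where 9.59% of all genes tested passed. Itgae was higher in 9 of 9 samples, Cxcr6 in 8 and Itga1 in 7. Rgs1, Cd69 and Itgb7 differed by -0.11, 0.05 and -0.03 and did not pass. Of the other residency genes listed, 3 of 10 tested were higher and 3 lower. Cd160, a receptor of cytotoxic cells, was higher by 2.19 (adjusted p = 2.79e-07, edgeR). Icos, a costimulatory receptor of T cells, had a log2 difference of -1.83 (adjusted p = 2.66e-08, edgeR). Of 12 genes of exit and circulation tested, 2 were higher in Cd8b1+ T cells and 0 lower. Among 17 immediate early and heat shock genes tested, which respond to handling as well as to activation, 10 were lower in Cd8b1+ T cells, with a median of -0.56 against -0.01 for all genes; their part in the result was not tested. Itga1 lost its call in the earlier library alone (1.50, adjusted p = 0.0579), at 2 or more UMIs per gating gene (0.0899) and without the sample block (0.253). Cxcr6 lost it in the earlier (1.37, adjusted p = 0.0624) and the later library alone (0.106), at 2 UMIs (0.157), without the block (0.419), by library size alone (0.0919) and without the later Lactation sample (0.0524), and in the earlier Lactation sample it rests on 39 against 1 UMIs.

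Within T cells that carry Cd8a, those without a Cd8b1 UMI were compared with those that had one. Cd8a can pair with itself in place of Cd8b1, as on unconventional intraepithelial T cells. Itgae was higher without Cd8b1 by 1.54 (SE 0.12, adjusted p = 1.24e-08, edgeR), Itga1 by 1.49 (SE 0.15, adjusted p = 3.87e-07) and Rgs1 by 1.12 (SE 0.12, adjusted p = 6.21e-07), each in 9 of 9 samples. So 3 of 6 members passed, where 11.5% of all genes tested did. Cxcr6 differed by 0.39 (adjusted p = 0.0632), Cd69 by -0.11 and Itgb7 by -0.11. Cxcr6 passed in 6 of the alternatives, among them the later library alone (0.52, adjusted p = 0.0445) and without the later Lactation sample (0.47, adjusted p = 0.0391).

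The rest of the residency list moved with these members in that comparison. Of 15 other residency genes tested, 13 were higher and 0 lower, with a median of 0.97 against 0.00 for all genes. Gzmb, a granzyme, was higher by 2.70 (adjusted p = 2.93e-10), Cd244a, a receptor of NK and cytotoxic cells, by 2.40, and Xcl1, a chemokine that attracts type 1 dendritic cells, by 2.24. Several of these genes also belong to cytotoxic cells outside tissues. Of 13 genes of exit and circulation tested, 11 were lower and 0 higher, with a median of -0.98. Ccr7, a lymph node homing receptor, had a log2 difference of -1.64, Lef1 of -1.53 and Tcf7 of -1.26, the last pair being factors of naive and memory T cells. Of 4 integrin partner and ligand genes tested, 1 was higher and 1 lower. Cdh1, which encodes the E-cadherin that CD103 binds, was itself higher in Cd8a+ Cd8b1- T cells by 0.97 (adjusted p = 0.0011, edgeR). Itga4, the other partner of Itgb7, had a log2 difference of -0.61 (adjusted p = 0.0122, edgeR). Of 11 genes of the TGF-beta pathway, which is known to induce CD103, 2 were higher and 0 lower, a count near the 11.5% of all genes that passed: Itgav, an integrin chain that activates TGF-beta, by 1.01 and the receptor Tgfbr1 by 0.95. The summed level of the 6 NK genes moved too: it was 9.51 to 21.5 in Cd8b1+ and 18.4 to 41.3 in Cd8a+ Cd8b1- T cells, with 0 of 6 genes at 0. Its part in the result was not tested.

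T cells without a coreceptor UMI also had more of the same 3 members than Cd8b1+ T cells. Itga1 was higher by 0.83 (SE 0.11, adjusted p = 1.69e-05, edgeR), Rgs1 by 0.68 (SE 0.09, adjusted p = 3.62e-05) and Itgae by 0.62 (SE 0.13, adjusted p = 0.00209), each in 9 of 9 samples; 12.2% of all genes tested passed. Cxcr6, Itgb7 and Cd69 differed by 0.26, 0.06 and -0.03 and did not pass, although Cxcr6 did at 2 UMIs per gating gene (0.70, adjusted p = 0.0187) and with no filter on low counts (0.29, adjusted p = 0.031). Of 17 other residency genes 10 were higher and 1 lower, and of 14 exit genes 11 were lower and 0 higher. Of 5 integrin partner and ligand genes tested, 0 were higher and 1 was lower: Itga4 had -0.68 (adjusted p = 8.65e-05, edgeR). In this comparison 10 of 18 immediate early and heat shock genes were higher, with a median of 0.47. The summed level of the 6 NK genes had medians of 30.3 against 12.4 in Cd8b1+ T cells of the earlier library (18.6 to 37.6 against 11.9 to 21.5) and of 19.7 against 13.0 in the later (11.2 to 25.9 against 9.51 to 18.7). That of 6 macrophage genes had medians of 5.20 against 5.06 in the earlier library and of 12.4 against 4.02 in the later, where the ranges overlapped. None of these genes was at 0 in either gate, and the part of the 3 lists in the result was not tested. Without the sample block none of the 3 members kept its call (adjusted p = 0.166 to 0.241).

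Part of that gate carried Trdc, the constant chain of the gamma-delta T cell receptor, a split chosen after the levels were seen and given with no test. Cells with a Trdc UMI, 8.30% to 22.8% of the gate, had a median Itgae level of 5.08 against 2.14 in the rest, and Itgae was higher with Trdc in 9 of 9 samples. Their Cxcr6 was higher in 8 and their Itga1 and Rgs1 in 7 samples. Their Cd69 was lower in 8 samples. Among Cd8a+ Cd8b1- T cells of the GF sample 26.7% had a Trdc UMI, against 1.17% to 8.77% in the other 8 named samples, and Itgae there was 14.4 with Trdc and 9.39 without.

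Ncr1+ Cd3e- cells were set against all T cells to see which members NK and innate lymphoid cells share. Cxcr6 was lower in them by a log2 difference of -1.07 (SE 0.09, adjusted p = 8.97e-08, edgeR) and Cd69 by -0.71 (SE 0.09, adjusted p = 1.2e-05), both in 9 of 9 samples. Itgb7 had -0.25 (adjusted p = 0.0112) and Rgs1 was higher by 0.38 (adjusted p = 0.0322). These are 4 of 6 members, where 20.7% of all genes passed. Itga1 differed by 0.02 (adjusted p = 0.957), with an SE of 0.15. Itgae differed by -0.40 (adjusted p = 0.142), but passed in the earlier library alone (-0.75, adjusted p = 2.41e-05), where the gating genes needed 2 UMIs (-0.70, adjusted p = 0.0124) and with no filter on low counts (-0.44, adjusted p = 1.25e-06). Rgs1 lost its call in DESeq2 (adjusted p = 0.0554), in the earlier library alone (0.764), with 2 UMIs (0.43), without the block (0.532) and in the exact sign-flip permutation test over samples (two-sided p = 0.0586, smallest possible 0.00391). Itgb7 lost its call in the earlier library alone (adjusted p = 0.648), with 2 UMIs (0.166), without the block (0.202) and by library size alone (0.0646).

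Other list genes differed in both directions, where 20.7% of all genes tested passed. Of 18 other residency genes tested, 8 were higher in Ncr1+ Cd3e- cells and 2 lower. Of 15 exit genes 4 were higher and 8 lower. Of 18 immediate early and heat shock genes 3 were higher and 4 lower. Xcl1 was higher in Ncr1+ Cd3e- cells by 1.50, while Icos, a costimulatory receptor of T cells, had -2.62 and P2rx7, a receptor for extracellular ATP, -2.25. The exit gene S1pr1, the target of CD69, had -2.74 and Ccr7 -2.86. Hspa1a and Hspa1b, heat shock genes that also respond to tissue digestion, had -1.0 and -0.86.

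Within the Ncr1+ Cd3e- gate the members followed Eomes, a T-box factor of circulating NK cells that ILC1, the tissue-resident relatives of NK cells, largely lack. This split was also chosen after the levels were seen and carries no test. Cells with an Eomes UMI had a median Itgae level of 0.654 against 2.10 without one, Itga1 of 0.757 against 3.67, Cxcr6 of 0.0989 against 1.40 and Rgs1 of 4.19 against 11.4. All 4 genes were lower with Eomes in 9 of 9 samples. Cd69 was lower with Eomes in 3 and higher in 6 samples, with medians of 1.37 and 1.34, and Itgb7 was lower in 8 and higher in 1. The share of the gate with an Eomes UMI was 14.2% to 18.1% in the earlier library and 18.9% (Balb/c) to 46.7% (Involution) in the later one.

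**Figure D2:**
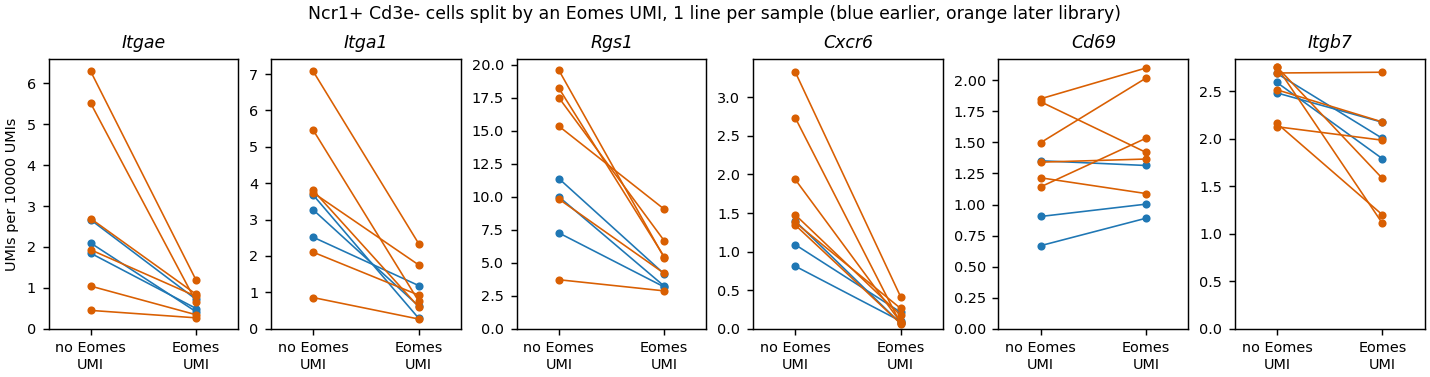
Each line joins the level of a gene in Ncr1+ Cd3e- cells without and with an Eomes UMI in 1 of the 9 samples (vertical axis, UMIs of the gene per 10000 UMIs; blue earlier, orange later library). All lines of Itgae, Itga1, Rgs1 and Cxcr6 fall, and those of Cd69 go both ways.

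Cd3e+ Ncr1+ cells, which hold both a T cell and an NK transcript, had higher levels of 5 of 6 members than Ncr1+ Cd3e- cells, where 5.44% of all genes tested passed. Itgae was higher by 1.11 (SE 0.14, adjusted p = 5.11e-06, edgeR), Cxcr6 by 0.93 (SE 0.11, adjusted p = 8.91e-07), Itga1 by 0.84 (SE 0.11, adjusted p = 1.04e-05) and Cd69 by 0.53 (SE 0.10, adjusted p = 0.0013), each in 9 of 9 samples. Rgs1 was higher by 0.33 (adjusted p = 0.0319) in 8 of 9, and Itgb7 differed by 0.23 (adjusted p = 0.244). Of 15 other residency genes tested, 6 were higher and 1 lower, and of 13 exit genes 1 was higher and 4 lower. Of 17 immediate early and heat shock genes tested, 0 were higher and 6 lower, and the part of these genes in the result was not tested. Cdh1 was higher again, by 0.94, Gzmb by 0.77 and Qpct by 0.63. S1pr1 was higher by 1.25, while Eomes had -1.26 and Klrg1, a receptor of mature NK cells, -1.04. These cells were deeper than Ncr1+ Cd3e- cells, with medians of 2220 against 1617 UMIs in the earlier and 3602.5 against 3158 in the later library. Cells of 2 kinds caught in a droplet would be deeper too, and their part was not tested. With at least 2 UMIs of each gating gene, Itgae and Cxcr6 kept their calls while Itga1 (0.49, adjusted p = 0.136), Cd69 (0.16) and Rgs1 (0.04) lost them; without the block Cxcr6 and Cd69 kept theirs and Itgae had an adjusted p of 0.084, Itga1 of 0.211. Cd69 lost its call in the earlier library alone (adjusted p = 0.0674). Rgs1 lost it within either library (adjusted p = 0.175 and 0.281), without the later Lactation sample (0.0567), with doublet calls kept (0.0546), by library size alone (0.0928), without the block (0.774) and in DESeq2 (0.0799).

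Xcr1+ dendritic cells had lower levels of 5 of the 6 members than T cells. Against all T cells over 6 samples, Cxcr6 had a log2 difference of -5.87 (SE 0.35, adjusted p = 3.98e-11, edgeR), Cd69 of -3.79 (SE 0.28, adjusted p = 8.55e-10), Itga1 of -2.40, Itgae of -1.55 (SE 0.31, adjusted p = 0.000403) and Rgs1 of -1.38. All 5 passed, where 40.7% of all genes did, so passing says little here. The counts behind the larger differences were small: Cd69 had 1 to 5 UMIs per sample in Xcr1+ cells. Itgb7 differed by -0.12 (adjusted p = 0.452), but was lower in 6 of 6 samples (two-sided exact sign-flip permutation p = 0.0313, the smallest possible), and passed when scaled by library size alone (-0.30, adjusted p = 0.0444). Itgae in Xcr1+ cells ran from 0.0474 (Regression, 1 UMI) to 1.13 (earlier Gestation, 19 UMIs), and 12 of the 32 UMIs of the Involution sample were in 1 cell. Itgae lost its call where gating genes needed 2 UMIs (-0.67, adjusted p = 0.0608), and Rgs1, lower in 5 of 6 samples, in the sign-flip permutation test (p = 0.0625, two-sided, exact). Cxcl16, the ligand of CXCR6, was higher in Xcr1+ cells by 3.53 (SE 0.23, adjusted p = 1.12e-10), so receptor and ligand RNA lay on opposite sides of this comparison.

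**Figure D3:**
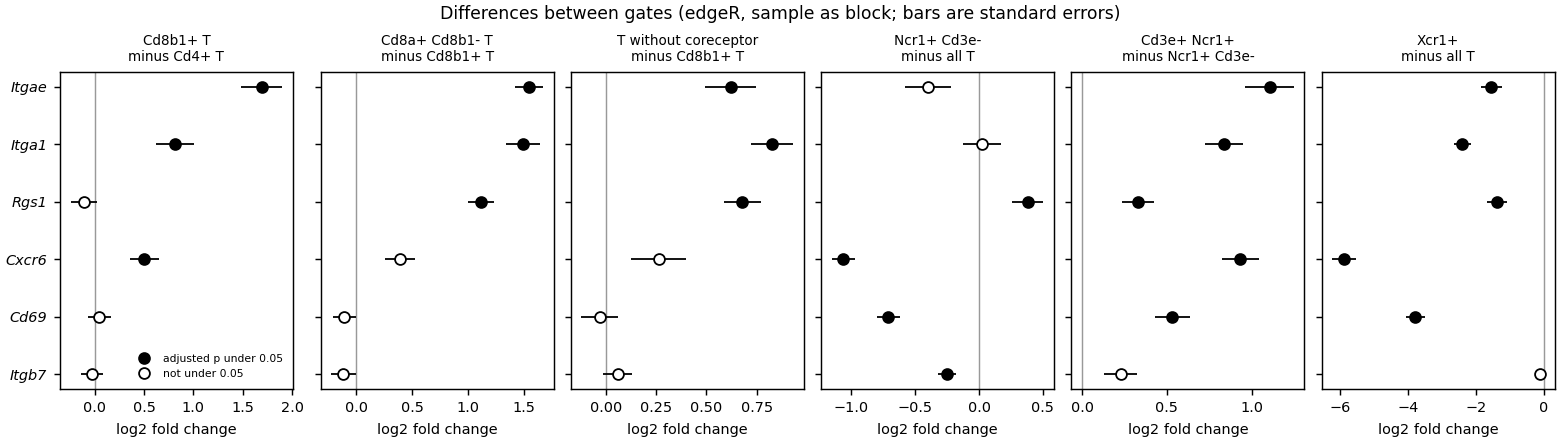
Points are log2 fold changes of the 6 genes (horizontal axis) in the 6 comparisons of gates, with standard errors as bars; filled points have an adjusted p under 0.05 in edgeR. Itgae, Itga1 and Rgs1 lie to the right in Cd8a+ Cd8b1- T cells, at 1.54, 1.49 and 1.12, while Cd69 and Itgb7 lie near 0 there; the horizontal scales differ between panels.

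The members also went together cell by cell. After thinning to 1000 UMIs, Ncr1+ Cd3e- cells of the later library with an Itgae UMI had an Itga1 UMI in 58.6% of 249 cells, against 18.8% of 1006 cells without Itgae, and in the earlier library 48.5% of 171 against 18.3% of 887. In Cd8b1+ T cells the shares with Itga1 were 31.7% against 9.55% in the later and 28.2% against 9.96% in the earlier library. Itgae, Itga1, Rgs1 and Cxcr6 each occurred more often where another of the 4 was seen, in all 11 combinations of gate and library with at least 20 cells on each side (10 where Itgae was the gene conditioned on). Cd69 did not join them as regularly. Itga1 and Itgae were each more frequent with than without a Cd69 UMI in 5 of 11 combinations, and Cxcr6 and Rgs1 each in 7 of 11. With an Itgb7 UMI Itga1 was more frequent in 8 of 14, Itgae and Cxcr6 each in 9 and Rgs1 in 7. Cells of different samples are pooled in these shares, which are descriptions with no test. Of Cd8a+ Cd8b1- T cells of the later library, 36 of 394 had UMIs of 4 members, 7 of 5 members and 3 of all 6.

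**Figure D4:**
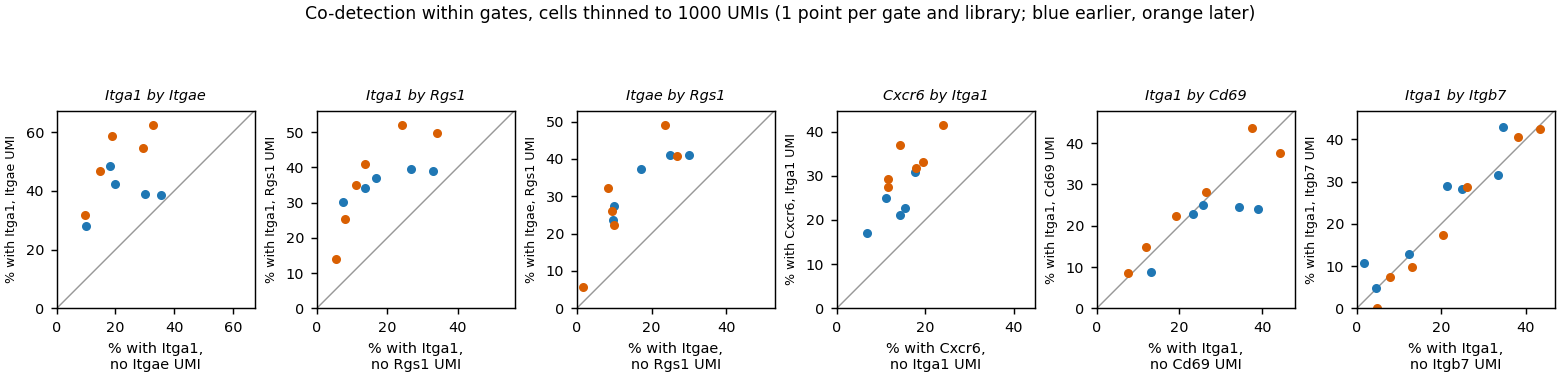
Each point is a gate in 1 library (blue earlier, orange later) with cells thinned to 1000 UMIs; the horizontal axis gives the percent of cells with a UMI of the titled gene among cells without a UMI of the other gene, and the vertical axis the percent among cells with one. Points above the grey diagonal mean the genes occur together; all are above it for Itga1 by Itgae, and 5 of 11 for Itga1 by Cd69.

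The genes whose levels ran most alike with a member over the gate sums were named by Pearson's r of log2 CPM, over 21 sums in the earlier and 39 in the later library, among 2488 genes. These sums share samples, libraries and depth, so the values are descriptions. Itga1 ran most like Cdh1 (r = 0.918 and 0.883), then Cd7 and Gzmb. Itgae ran like Gzma (0.806 and 0.789), Abi3 and Trgc1. Rgs1 ran like Nedd9 (0.94 and 0.883), AU020206 and AW112010, Cxcr6 like Stk17b, Lars2 and Pitpnc1, and Cd69 like Lck, Fam107b and Tnik. Itgb7 had no close match, its best being Gpi1 (0.578 and 0.512). Among the members, Itgae and Itga1 had an r of 0.856 and 0.87, Itga1 and Rgs1 of 0.842 and 0.921, and Cxcr6 and Cd69 of 0.884 and 0.921, whereas Itgae and its partner chain Itgb7 had 0.599 and -0.07.

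Gestation and Lactation are the only names with a sample in both libraries. In all T cells the Itgae level was 3.35 in Gestation and 3.94 in Lactation of the earlier library, while the later one had 1.58 and 3.65. Itga1 was at 4.05 and 4.27, then 1.90 and 4.40. Rgs1 was at 10.4 and 9.47, then 5.97 and 12.2. For these 3 genes the Lactation samples of both libraries lay closer together than the Gestation samples. Cxcr6 went the other way, at 2.69 and 2.00 in Gestation against 2.00 and 3.66 in Lactation. Fitted over the 4 samples with the library as a block, Itgae differed by 0.70 (SE 0.25, adjusted p = 0.592, edgeR), Itga1 by 0.63, Rgs1 by 0.43, Cxcr6 by 0.22, Cd69 by 0.15 and Itgb7 by -0.06. None of the 6 passed at an adjusted p of 0.05, in edgeR or DESeq2, and 2 (Itgae and Itga1) had an unadjusted p under 0.05; 0.325% of all genes passed.

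Itga1 in Cd8b1+ T cells was the member result that passed, on 1 residual degree of freedom and 38.5 borrowed from other genes. Its level was 1.61 in Gestation (33 UMIs in 111 cells) and 3.06 in Lactation (42 UMIs in 69 cells) of the earlier library, and 1.43 (311 UMIs in 549 cells) and 3.70 (115 UMIs in 95 cells) of the later. It was higher in Lactation by 1.12 (SE 0.26, adjusted p = 0.0388, edgeR), by 0.83 in the earlier and 1.19 in the later library; 0.312% of all genes tested passed. Rgs1 differed by 0.82, Cxcr6 by 0.83, Itgae by 0.60, Cd69 by 0.27 and Itgb7 by 0.01, with none past the threshold. The Itga1 call did not hold in DESeq2 (1.09, adjusted p = 1.00), without the library block (1.10, adjusted p = 1.00), with at least 1000 UMIs per cell (1.15, adjusted p = 0.0969), at 2 UMIs per gating gene (0.77) or when any of the 4 samples was left out (0.83 to 1.27). With the largest tag by count in place of the tag calls, Cxcr6 passed as well (0.91, adjusted p = 0.0465). In Cd4+ T cells Itga1 differed by 1.37 (adjusted p = 0.153) and Itgae had too few counts to be tested. There 0 of 5 members passed in edgeR or DESeq2, where edgeR called 0.409% of all genes, with Itga1 and Cd69 under an unadjusted p of 0.05. At 2 UMIs per gating gene Itga1 (3.23) and Rgs1 (1.45) passed there.

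Genes of exit and circulation were compared between the same stages. In all T cells 5 of 15 exit genes were lower in Lactation and 0 higher, with a median of -0.83 against 0.01 for all genes: S1pr1 had -1.39 (adjusted p = 0.00582, edgeR) and Lef1 -1.29 (adjusted p = 0.0184). Ccr9, a gut-homing receptor, had -2.51 (adjusted p = 0.0461). All these calls were lost without the library block and when either Lactation sample was left out, where edgeR called 0 genes of any kind (134, 142 and 617 had an unadjusted p under 0.05). Leaving out a Gestation sample, which leaves 1 sample in that group, moved the count both ways. It fell without the later and rose without the earlier Gestation sample. DESeq2 called 7 genes in place of 30. In Cd8b1+ T cells Lef1 had -1.36 (adjusted p = 0.013, edgeR), a call lost in DESeq2, without the block and at 2 UMIs per gating gene, where 0 genes of any kind were called (20, 74 and 48 had an unadjusted p under 0.05). Of 19 other residency genes, 0 passed in all T cells, with a median of 0.40. In Cd4+ T cells 1 of 6 tested passed: Xcl1 was higher in Lactation by 2.20 (SE 0.36, adjusted p = 0.000611, edgeR). There edgeR called 7 genes of any kind, 0.409% of those tested, and DESeq2 called 1.

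In the remaining gates the members did not pass, and edgeR called 0.0252% of all genes in T cells without a coreceptor UMI, 0.224% in Ncr1+ Cd3e- cells and 0.145% in Cd3e+ Ncr1+ cells. In T cells without a coreceptor UMI the 6 differences between Lactation and Gestation ran from -0.13 (Itgb7) to 0.64 (Itgae), and the 2 libraries were unlike: Itgae went from 3.95 to 3.78 in the earlier and from 1.69 to 4.38 in the later. In Ncr1+ Cd3e- cells they ran from -0.39 (Itgae) to -0.12 (Itga1), and the libraries again parted: Itgae went from 1.79 to 2.39 in the earlier and from 2.13 to 0.716 in the later. In Cd3e+ Ncr1+ cells they ran from -0.21 to 0.17. None of the 6 had an unadjusted p under 0.05 in these 3 gates in edgeR, and none passed in DESeq2. The differences between libraries were not tested here, since each has 1 sample per stage.

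**Figure D5:**
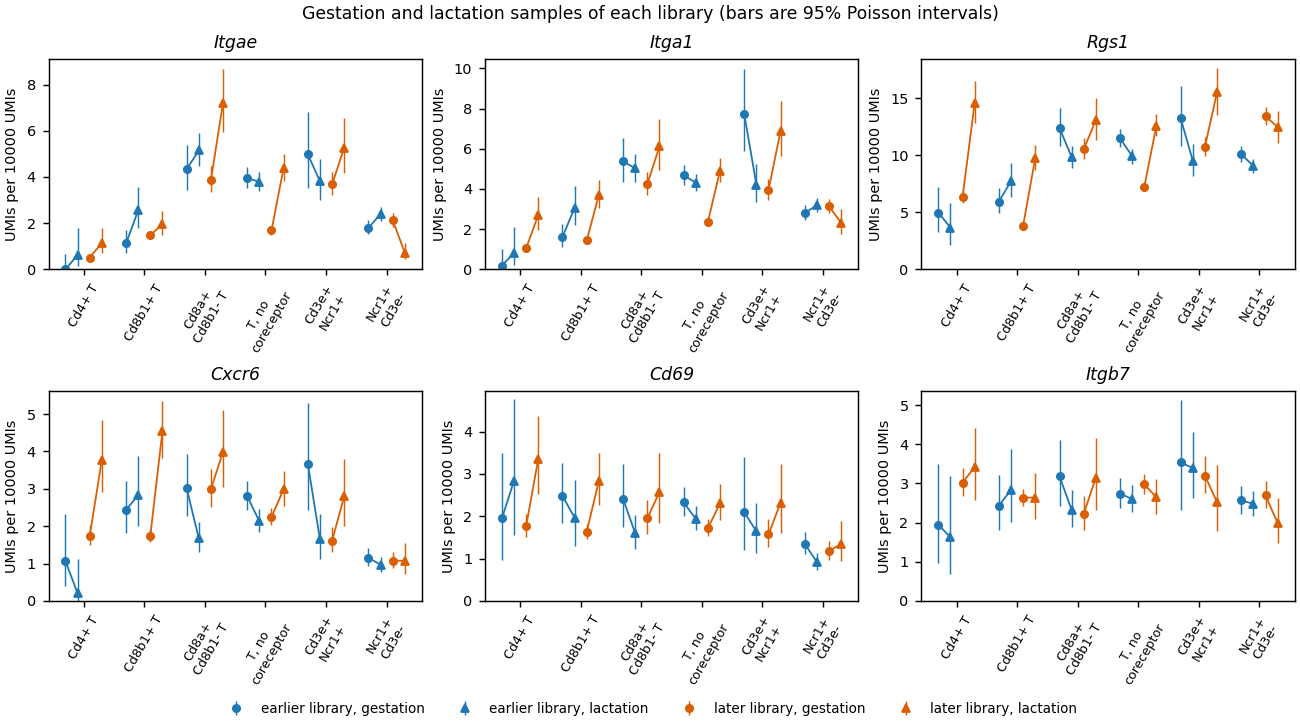
Levels of the 6 genes in Gestation (circles) and Lactation (triangles), in UMIs of the gene per 10000 UMIs of the gate (vertical axis), joined within each library (blue earlier, orange later) for 6 gates; bars are 95% Poisson intervals for counting error only. Both libraries show higher Itga1 in Lactation in Cd8b1+ T cells, from 1.61 to 3.06 and from 1.43 to 3.70, while in T cells without a coreceptor UMI the libraries go different ways.

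The other names have 1 sample each, so their levels are values with no test. In the later library the Regression sample had the lowest Itgae in 5 of the 6 T and NK gates and the lowest Itga1 in 5, and Involution had the lowest of each in the sixth. Balb/c had the highest Itgae in 4 of the 6 gates and the highest Cxcr6 in 4. In Ncr1+ Cd3e- cells Itgae was 5.26 in Balb/c, 3.77 in GF, 2.13 in Gestation, 1.35 in Involution, 0.716 in Lactation and 0.380 in Regression. Balb/c and Regression thus bound the range of that gate, and the same order of the 2 held for Itga1, at 6.11 and 0.633, and Rgs1, at 15.6 and 3.39. Balb/c also had fewer cells with an Eomes UMI in the gate, 18.9% against 39.3% in Regression. Among cells without an Eomes UMI the Itgae levels were 6.30 and 0.449. The part of the Eomes share in these differences was not tested. Ncr1+ Cd3e- cells were 24.7% and Cd3e+ Ncr1+ cells 10.7% of the Balb/c cells, against 5.10% and 1.09% of the Regression cells.

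In Cd8a+ Cd8b1- T cells the GF sample was highest for 3 members: Itgae was 10.9, Itga1 8.37 and Rgs1 19.0, against 7.54, 6.11 and 14.6 in the samples next in order. In Cd8b1+ T cells GF lay within the range of the others, with Itgae at 2.23 and Itga1 at 2.07. In the earlier library Nulliparous had the lowest Rgs1 of the 3 samples in every T and NK gate but Cd3e+ Ncr1+: in all T cells it was 4.20 against 10.4 in Gestation and 9.47 in Lactation. Its Itga1 in all T cells was 1.73 against 4.05 and 4.27. Itgb7 in all T cells kept the narrowest range of the 6 genes, from 2.43 to 2.86 over the 9 samples.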

How the data were processed

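Gene RNA and sample tags were read from single CD45+ cells in 2 pooled droplet libraries. The deposited gene matrices hold raw UMI counts, made by the authors on mm10 with Cell Ranger 6.1.0 per the submitters' processing notes; the header of the earlier matrix names Cell Ranger 4. The authors' tag sheets, as deposited, name the tags, and the tag counts are raw counts too. Cells with at least 500 UMIs, 300 genes and at most 10% mitochondrial UMIs were kept, assigned by HTODemux (Seurat 5.3.0, quantile 0.99, tags with at least 100 counts in a library), and Scrublet calls (scanpy 1.11.5, expected rate 0.08) were removed. Of 21604 and 21177 passing cells, 12464 and 12815 remained with a name. Counts were summed per gate and sample (at least 20 cells) and tested with edgeR 4.0.16 (R 4.3.3; quasi-likelihood, TMM, filterByExpr, Benjamini-Hochberg over all genes, threshold 0.05), with the hash-defined sample as a block between gates and the library as a block between stages, which leaves 1 residual degree of freedom. In the stage fits edgeR borrowed a further 9.22 to 184 degrees of freedom from other genes, so those p-values rest mostly on the latter. In the gate fits it borrowed 9.52 to 17.4, beside 5 (Xcr1+) or 8 residual ones. The gates of a sample come from the same animals and library. Their deviations from the gate means correlated at 0.09 to 0.79. DESeq2 1.42.0 and exact two-sided sign-flip permutation (scipy 1.17.1, Python 3.11.15) were alternatives. Fits were also run on simulated counts with planted changes. Those counts held no differences between samples or libraries, so they could not test the blocks.

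The members and gene lists were chosen with earlier results of these data known. All members are named everywhere; of each list at most 3 genes per comparison, those past the threshold with the largest log2 fold change. An exit gene that this rule names is not reported here, though the list counts include it. Likeness took genes with a mean of at least 50 CPM in both libraries and a pseudocount of 1. The transcript CT010467.1 took 17.6% and 5.84% of UMIs and stayed in the totals. Gating genes do not count in percentages of genes passed. Exact intervals are Clopper-Pearson at 95%.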

Additional observations from a re-analysis of the deposited data

Results flagged for a closer look

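Of 78 sets of per-sample values checked, 5 held a sample that stood apart from the rest, and chance gives about 1 in 20. The difference of Cxcr6 between Cd8b1+ and Cd4+ T cells was 3.62 (log2) in the earlier Lactation sample, with the nearest sample at 1.52, and rests on 39 against 1 UMIs. The difference of Cd69 between T cells without a coreceptor UMI and Cd8b1+ T cells was 0.77 in the Regression sample, with the nearest at 0.21, from 165 and 56 UMIs. In Cd4+ T cells of the later Lactation sample Itga1 was at 2.70 per 10000 (45 UMIs; nearest 1.04) and Rgs1 at 14.6 (243 UMIs; nearest 6.34). Cxcr6 in T cells without a coreceptor UMI was at 4.70 in Balb/c (388 UMIs), with the nearest at 2.99. The differences between gates were also compared between the libraries: 0 of 36 member tests passed in edgeR, with a lowest adjusted p of 0.303.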

How the results depend on the processing

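The 24 member calls kept their direction under all 283 alternatives run and their side of the threshold under 239; 44 lost the call, and the causes were not tested. Without the replicate block, which undoes the pairing of gates within a sample, members called were 1 (Cd8b1+ minus Cd4+ T), 0 (T without coreceptor minus Cd8b1+ T), 2 (Ncr1+ Cd3e- minus T), 2 (Cd3e+ Ncr1+ minus Ncr1+ Cd3e-) and 0 (Lactation minus Gestation in Cd8b1+ T). In the order Cd8b1+ minus Cd4+ T, Cd8a+ Cd8b1- minus Cd8b1+ T, T without coreceptor minus Cd8b1+ T, Ncr1+ Cd3e- minus T, Cd3e+ Ncr1+ minus Ncr1+ Cd3e- and Xcr1+ minus T, all genes called were 378, 542, 925, 1820, 324 and 2973. They were 176, 370, 362, 1048, 98 and 2844 without the block, 35, 203, 108, 610, 77 and 1911 in the earlier library alone, and 111, 328, 476, 1127, 75 and 1437 at 2 UMIs per gating gene. With no filter on low counts 609 were called for Cd8b1+ minus Cd4+ T and 502 for Cd3e+ Ncr1+ minus Ncr1+ Cd3e-. In these comparisons members called were 1 and 3 in the earlier library alone, and 1 and 2 at 2 UMIs. For Cd8b1+ T between stages 0 members were called by DESeq2, at 2 UMIs, at 1000 UMIs per cell and in each leave-one-out fit (0 to 0), and 2 by largest tag; for Cd4+ T 2 were called at 2 UMIs. Counts of genes called between stages moved more: in all T cells 30 became 7 in DESeq2 and 0 without the block. The number of cells limits the precision in Cd4+ T (23 to 271 a sample) and Xcr1+ cells.

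Values that changed sign belong to members that were not called. With no filter on low counts they were Itgb7 0.063 (Cd8b1+ minus Cd4+ T), Itga1 -0.018 (Ncr1+ Cd3e- minus T), Itgb7 -0.041 (stage, Cd8b1+ T), Itgb7 -0.030 (stage, Cd4+ T). Without the replicate block they were Itgb7 0.018 (Cd8b1+ minus Cd4+ T), Itga1 -0.048 (Ncr1+ Cd3e- minus T), Itga1 -0.065 (stage, Cd3e+ Ncr1+). In the earlier library alone they were Itgb7 0.61, Cd69 -0.035, Rgs1 0.36 (Cd8b1+ minus Cd4+ T), Itgb7 -0.089 (T without coreceptor minus Cd8b1+ T), Itga1 -0.28 (Ncr1+ Cd3e- minus T). As the mean of sample differences they were Itgb7 0.039 (Cd8b1+ minus Cd4+ T), Cd69 0.050 (T without coreceptor minus Cd8b1+ T). At 2 UMIs per gating gene they were Cd69 -0.12, Rgs1 0.30 (Cd8b1+ minus Cd4+ T), Cd69 0.039 (Cd8a+ Cd8b1- minus Cd8b1+ T), Cd69 0.12 (T without coreceptor minus Cd8b1+ T), Itga1 -0.20 (Ncr1+ Cd3e- minus T), Itgb7 -0.10 (stage, Cd8b1+ T), Itgb7 0.081, Cxcr6 0.00036 (stage, Cd3e+ Ncr1+). By library size alone they were Cd69 0.050 (T without coreceptor minus Cd8b1+ T), Cxcr6 0.0063 (stage, T without coreceptor). With the HT2 samples added they were Itga1 -0.068 (Ncr1+ Cd3e- minus T), Itgb7 0.11 (Xcr1+ minus T). With doublet calls kept they were Itga1 -0.018 (Ncr1+ Cd3e- minus T), Cxcr6 0.026 (stage, T without coreceptor), Cxcr6 0.0031 (stage, Cd3e+ Ncr1+). At 1000 UMIs per cell they were Itgb7 -0.068 (stage, Cd8b1+ T), Cxcr6 0.013 (stage, T without coreceptor). In DESeq2 they were Cxcr6 0.0022 (stage, T without coreceptor). By largest tag they were Cxcr6 0.044 (stage, Ncr1+ Cd3e-), Itgb7 0.16, Cd69 -0.051, Rgs1 -0.048 (stage, Cd3e+ Ncr1+). Without the later Lactation sample, an alternative added after the data were seen, they were Itgb7 0.016 (Cd8b1+ minus Cd4+ T), Cd69 0.0017 (T without coreceptor minus Cd8b1+ T). Leaving out 1 of the 4 stage samples, which also drops the library block, gave Itgb7 -0.18 to 0.068, Itga1 -0.059 to 1.32, Cd69 -0.24 to 0.51, Cxcr6 -0.14 to 0.58, Rgs1 -0.12 to 0.97 (all T), Itgb7 -0.20 to 0.21, Cd69 -0.29 to 0.58 (Cd8b1+ T), Itgb7 -0.26 to 0.26, Rgs1 -0.24 to 1.13 (Cd4+ T), Itgae -0.11 to 1.42, Itgb7 -0.32 to 0.054, Itga1 -0.18 to 1.11, Cd69 -0.30 to 0.45, Cxcr6 -0.31 to 0.31, Rgs1 -0.20 to 0.77 (T without coreceptor), Itgae -1.61 to 0.41, Itgb7 -0.57 to 0.036, Itga1 -0.52 to 0.24, Cd69 -0.45 to 0.034, Cxcr6 -0.34 to 0.054 (Ncr1+ Cd3e-), Itgae -0.24 to 0.35, Itgb7 -0.60 to 0.24, Itga1 -0.60 to 0.53, Cd69 -0.19 to 0.38, Cxcr6 -0.85 to 0.49, Rgs1 -0.20 to 0.25 (Cd3e+ Ncr1+). Other values of opposite sign within these ranges were Itgb7 0.036 (all T), Cxcr6 -0.076 (all T), Itgb7 -0.072 (Cd8b1+ T), Itgb7 -0.12 (Cd4+ T), Cd69 -0.033 (T without coreceptor), Cxcr6 0.022 (T without coreceptor), Itga1 -0.21 (Cd3e+ Ncr1+), Cxcr6 0.034 (Cd3e+ Ncr1+), Rgs1 -0.11 (Cd3e+ Ncr1+).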

Other observations

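The tag HT2, whose name the titles do not bear out, had low Itgae in T cells and in Ncr1+ Cd3e- cells of both libraries. In all T cells Itgae was at 0.440 in the earlier (348 cells) and 0.241 per 10000 in the later library (219 cells), below the lowest of the 9 named samples, 0.952. Itga1, at 0.846 and 1.29, lay inside the named range of 0.778 to 4.40. Rgs1, at 1.64 and 2.01, and Cxcr6, at 0.982 and 1.37, were also below the lowest named samples, 3.28 and 1.48. Cd69, at 2.34 and 2.31, lay inside the named range of 1.41 to 2.67. Itgb7 was at 2.61 in the earlier library, inside the named range of 2.43 to 2.86, and at 2.19 in the later, below it. In Ncr1+ Cd3e- cells Itgae was at 0.315 and 0.179 and Cxcr6 at 0.148 and 0.189, with an Eomes UMI in 27.3% and 54.2% of these cells. Other gates differed: in Cd3e+ Ncr1+ cells Itgae was at 1.78 and 2.33, above the lowest named sample (1.67), and in Cd4+ T cells of the later library Itga1 was at 1.77, within the named 0.536 to 2.70. These are values of 2 samples with no comparison.

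Regulatory T cells, marked by Foxp3, are known to carry CD103 in several tissues. Only the Gestation and Regression samples of the later library had at least 10 Cd4+ T cells with a Foxp3 UMI, a split chosen after the values were seen. Itgae there was 1.06 with against 0.443 without a Foxp3 UMI in Gestation, and 1.37 against 0.129 in Regression. Of the 47 Itgae UMIs of these Gestation Cd4+ T cells, 10 were in 1 cell. Which side of the split held that cell was not examined, so the Gestation values may hang on it. The cells with a Foxp3 UMI, 21 in Gestation and 10 in Regression, held 10 and 9 Itgae UMIs, but 0 and 1 Itga1 UMIs, too few to read an Itga1 level from.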
